A study of Mus musculus with 2 samples.

Results

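The genes described here encode subunits of the Polycomb repressive complexes PRC1 and PRC2, and their messenger RNA was compared between T136A AHCY and WT AHCY E14.1 cells, which are mouse embryonic stem cells. The 33 genes were chosen by name, as core and accessory subunits of PRC2 and of canonical and variant PRC1. They were chosen with earlier results of these data known. All 33 were found among the 25749 genes of the deposited values. AHCY hydrolyses S-adenosylhomocysteine, the by-product and inhibitor of methyl transfer from S-adenosylmethionine, and the T136A form carries alanine in place of a threonine. Each genotype had 1 RNA-seq library, with implied totals of 18396840 reads for T136A and 17506154 reads for WT, so every difference below lacks a replicate check and "higher" or "lower" refers to these libraries only. The labels do not state how the T136A cells were made, whether the altered form replaced the cells' own enzyme, or whether the cells came from 1 clone. Values are RPKM, in which reads are divided by the depth of the library and by the length of all annotated exons of a gene. Levels of different genes can be compared only roughly, because the transcripts present may be shorter than that length.

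Polycomb complexes keep developmental genes silent in embryonic stem cells. PRC2 places the mark H3K27me3 on histone H3 through EZH1 or EZH2, held in an active form by EED and SUZ12. Its accessory subunits divide it into PRC2.1, which contains a Polycomb-like protein (MTF2, PHF1 or PHF19), and PRC2.2, which contains JARID2 and AEBP2. PRC1 ubiquitinates histone H2A through RING1 or RNF2. Canonical PRC1 pairs these with PCGF2 or BMI1, a CBX protein that reads the PRC2 mark, and a PHC protein, whereas variant PRC1 holds RYBP or YAF2 and is recruited by other means, KDM2B among them. EZH1 and EZH2 take their methyl group from S-adenosylmethionine, the donor whose by-product AHCY removes.

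The cells had the markers of the labelled cell type in both libraries. The 8 embryonic stem cell markers ranged from 98.0 to 1969 RPKM in T136A and from 106 to 2182 RPKM in WT. Their log2 ratios had a median of -0.18, with 6 below 0 and 2 above, Zfp42 (1.58-fold higher in T136A) and Tdgf1 (1.63-fold). Of 6 fibroblast feeder markers, 3 were among the listed genes, with a summed level of 0.589 RPKM in T136A and 0.507 RPKM in WT. Of 6 markers of differentiated germ layer cells, 3 reached 1 RPKM (Gata4, Gata6 and Sox17), 2 of them through T136A alone. All 3 were higher in T136A. Gata4, at a log2 ratio of 0.34, lies on chromosome 14, where the median log2 ratio of all genes was 0.32. T and Cdx2 stayed under 1 RPKM and were also higher in T136A, and Pax6 was listed at 0 in both libraries. The summed level of the 6 was 4.96 RPKM in T136A and 2.52 RPKM in WT. The part of such cells in the results was not tested. The Ahcy transcript was at 56.6 RPKM in T136A and 52.9 RPKM in WT, a gene-level value that cannot show the altered codon.

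Most Polycomb subunit transcripts stood within 1.5-fold of each other in the T136A and the WT library, and those furthest apart were accessory subunits. In plain RPKM, Phf19 was 3.85-fold and Scmh1 2.15-fold lower in T136A, while Bcorl1 was 2.29-fold and Jarid2 2.07-fold higher. Of the 33 genes, 31 reached 1 RPKM, all of them in both libraries, and Phc3 and Pcgf5 did not. On the scale of log2(RPKM + 1), 0 of the 31 were at least 2-fold higher in T136A, where 3.13% of all 12320 genes at or above 1 RPKM were. On the same scale 1 of the 31, Phf19, was at least 2-fold lower, where 3.10% of all genes were. Taking both directions, that is 1 of 31 beside 6.23% of all genes. Jarid2 lay just under the line, with a log2 ratio of 1.00 after rounding. In plain RPKM, 24 of the 31 (77.4%) were within 1.5-fold, where 68.9% of all genes were. The median log2 ratio was -0.17 over the 31 genes and -0.03 over all genes, with 20 of the 31 below 0 against a background of 52.6% of all genes.

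Apart from PRC2.2, the medians of the subcomplexes lay inside the middle range of all genes. That range was -0.47 to 0.44, the 16 to 84 percentiles of the log2 ratio of single genes. A median over several genes varies less than single genes do, so lying inside that range says little about a shift. With a minimum of 5 RPKM the median of variant PRC1 was -0.22, near the -0.27 of canonical PRC1, while that of the PRC2.1 accessory genes was -0.83. At that minimum Phf1 dropped out, so -0.83 rested on Mtf2 and Phf19 alone. Phf19 passed it through WT only, at 1.75 RPKM in T136A and 6.72 RPKM in WT, so it could only enter as lower. The values below are those at 1 RPKM. The median log2 ratio was -0.27 for canonical PRC1, -0.23 for the catalytic RING genes of PRC1, -0.17 for the PRC2 core, -0.17 for the PRC2.1 accessory genes and -0.06 for variant PRC1. For the PRC2.2 accessory genes it was 0.56, over 2 genes that lay apart, Jarid2 at 1.00 and Aebp2 at 0.12.

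For 29 of the 33 genes the values could be turned back into whole numbers of reads, which gave a 95% interval of the fold from counting error alone. Among genes at or above 1 RPKM with such an interval, it excluded a fold of 1 for 20 of 27 Polycomb genes, 6 higher and 14 lower in T136A, and for 68.6% of all genes. An interval that excludes 1 is therefore common at this depth, and it compares reads of these libraries and not the genotypes. In bulk RNA, fewer cells of a kind and less RNA per cell cannot be told apart. The 33 genes lie on 13 chromosomes, with 0 on chromosome 14, where the median log2 ratio of all genes was 0.32. Exons of 13 of the 33 overlap exons of another annotated gene, and those of Phf19, Jarid2, Bcorl1, Rybp and Scmh1 do not.

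**Figure D1:**
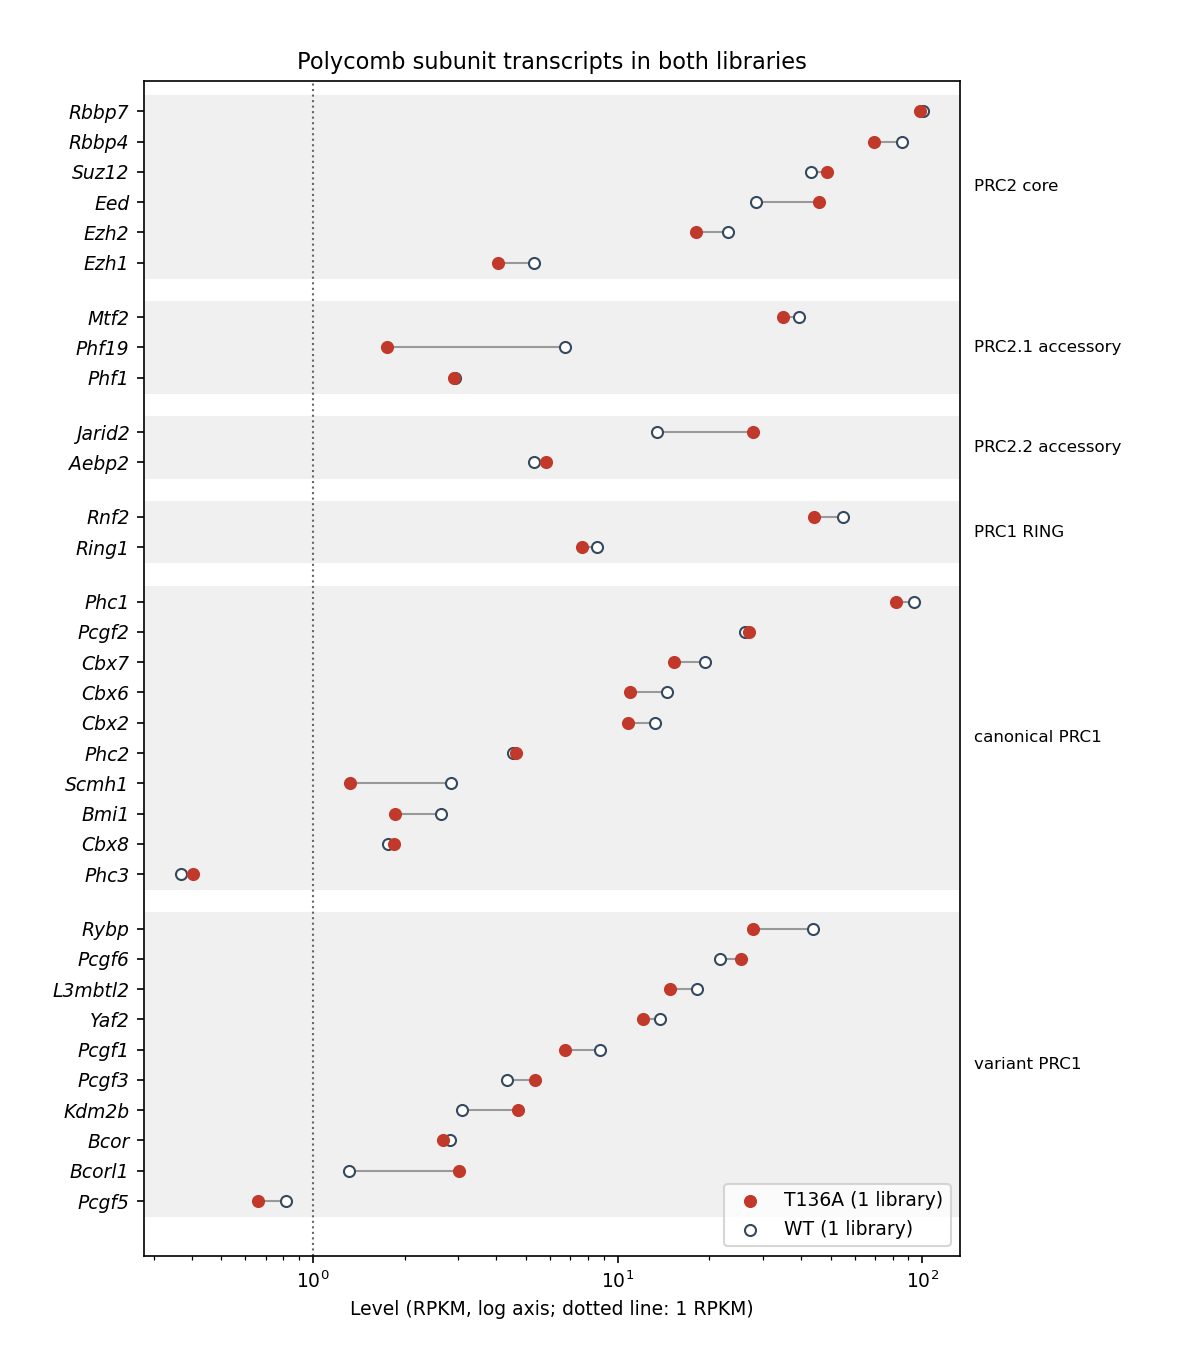
Level of each of the 33 Polycomb subunit transcripts in the T136A library (filled red) and the WT library (open), in RPKM on a log axis, grouped by subcomplex, with 1 library per genotype and a grey line joining its values. Phf19, Jarid2, Bcorl1 and Scmh1 have the longest lines, and Rbbp7, Phc1 and Rbbp4 stand at the top of both libraries.

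The order of levels was the same in both libraries for the 3 highest genes. Rbbp7, a histone chaperone shared by PRC2 with other chromatin complexes, was first in T136A and in WT, at 98.3 RPKM in T136A and 100.4 RPKM in WT. Phc1, a Polyhomeotic protein through which canonical PRC1 polymerises, was number 2 in both libraries, and Rbbp4, the close relative of Rbbp7, was number 3. Below them the order differed. Suz12, Eed and Rnf2 held places 4 to 6 in T136A, whereas Rnf2, Rybp and Suz12 held them in WT. Jarid2 was number 8 in T136A and 16 in WT, and Phf19 was number 30 in T136A and 20 in WT.

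The genes of the PRC2 core lay on both sides of 0. Of its 6 genes, 2 had a log2 ratio above 0 and 4 below 0, and the median was -0.17. Eed (ENSMUSG00000030619, chromosome 7), which binds the finished methyl mark and stimulates the enzyme, was at 45.9 RPKM in T136A and 28.4 RPKM in WT, 1.62-fold higher. Eed is the core gene furthest from a ratio of 1, and it has no counting interval because whole reads were not recovered for it. Suz12, the scaffold of the complex, was at 48.6 RPKM in T136A and 43.0 RPKM in WT, 1.13-fold higher (95% counting interval 1.08 to 1.18).

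The catalytic subunits were lower by a similar amount. Ezh2, the main methyltransferase of dividing cells, had 18.1 RPKM in T136A and 23.0 RPKM in WT, 1.27-fold lower (1.20 to 1.34). Ezh1, its less active relative, had 4.06 RPKM in T136A and 5.31 RPKM in WT, 1.31-fold lower (1.17 to 1.47). The share of Ezh2 in the summed level of both enzymes was 81.7% in T136A and 81.2% in WT. Set against that sum, Eed stood at a ratio of 2.07 in T136A and 1.00 in WT, and Suz12 at 2.19 in T136A and 1.52 in WT. The length used is that of all annotated exons together, 3828 bp for Eed, 7440 bp for Ezh1 and 6678 bp for Ezh2. Per that length, Eed was level with the sum of the enzymes in WT and above it in T136A. The same need not hold for numbers of transcripts.

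The histone chaperones Rbbp4 and Rbbp7 made up most of the core's summed level. Rbbp4 was at 69.1 RPKM in T136A and 85.5 RPKM in WT, 1.24-fold lower (1.21 to 1.27). The ratio of Rbbp7 was 0.980 (0.943 to 1.02), and its sign on the log2 scale turned when the libraries were scaled by the median ratio (0.01). The core as a whole summed to 284 RPKM in T136A and 285 RPKM in WT.

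The accessory subunits of PRC2 showed the widest range, with the PRC2.1 genes at or below 0 and the PRC2.2 genes above it. Phf19 (ENSMUSG00000026873, chromosome 2) encodes a Polycomb-like protein that recognises methylated lysine on histone H3 and links PRC2 to CpG-rich DNA. It had 1.75 RPKM from 162 reads in T136A and 6.72 RPKM from 593 reads in WT, 3.85-fold lower (3.23 to 4.61). Its log2 ratio of -1.49 was lower than that of all but 0.722% of the 12320 genes. Mtf2, the most abundant Polycomb-like transcript of both libraries, was at 34.9 RPKM in T136A and 39.4 RPKM in WT, 1.13-fold lower (1.08 to 1.18). Phf1, the other relative, was at 2.91 RPKM in T136A and 2.92 RPKM in WT, a difference whose sign turned under quantile normalization (0.03) and when scaled by the median ratio (0.03). Exons of Phf1 overlap those of Cuta on the opposite strand, which was at 79.4 RPKM in T136A and 121 RPKM in WT, and with no stated rule for strand the value of Phf1 is uncertain.

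Within the Polycomb-like group, Mtf2 therefore made up 88.2% of the summed RPKM in T136A and 80.3% in WT. The share of Phf19 was 4.41% in T136A and 13.7% in WT. The share of Phf1 was 7.35% in T136A and 5.95% in WT, so that Phf19 ranked below Phf1 in T136A and above it in WT. That order rests on the uncertain value of Phf1, which also enters the shares.

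Jarid2 (ENSMUSG00000038518, chromosome 13), a catalytically inactive relative of the Jumonji demethylases that recruits and stimulates PRC2, was at 27.8 RPKM from 4977 reads in T136A and 13.4 RPKM from 2283 reads in WT. The plain ratio was 2.07 (1.97 to 2.18), and the log2 ratio was higher than that of 96.9% of all genes. Aebp2, the zinc finger partner of Jarid2 in PRC2.2, was at 5.84 RPKM in T136A and 5.31 RPKM in WT, a ratio of 1.10 (1.01 to 1.20). Together Jarid2 and Aebp2 summed to 33.7 RPKM in T136A and 18.7 RPKM in WT. The 3 Polycomb-like genes summed to 39.6 RPKM in T136A and 49.0 RPKM in WT. The summed PRC2.2 level was therefore 0.851 of the summed Polycomb-like level in T136A and 0.382 of it in WT.

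That comparison depends on which genes are counted for PRC2.1. Epop, which encodes an elongin-binding subunit of PRC2.1 and is no member of the list of 33, was at 186 RPKM in T136A and 47.7 RPKM in WT. It was 3.90-fold higher in T136A (3.71 to 4.10), the opposite direction to Phf19. With Epop counted among the PRC2.1 genes, a choice made after its values were seen, the ratio of PRC2.2 to PRC2.1 was 0.149 in T136A and 0.194 in WT, which turns the order of the libraries round. Phf19 and Epop, both of PRC2.1, thus lay on opposite sides of a ratio of 1.

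The start regions of Phf19 and Jarid2 are shown because these genes had the lowest and the highest log2 ratio of the 33. The sequences are from RefSeq, build GRCm38.p6, and cover 250 bases before to 50 bases after an annotated start, 5′ to 3′ on the gene's strand, with CpG dinucleotides in capitals. CpG-rich DNA is the kind bound by KDM2B and by the Polycomb-like proteins. Phf19 has 1 such window, chr2:34913927-34914226 on the minus strand, and Jarid2 has 2, chr13:44730524-44730823 and chr13:44731021-44731320 on the plus strand.
Phf19: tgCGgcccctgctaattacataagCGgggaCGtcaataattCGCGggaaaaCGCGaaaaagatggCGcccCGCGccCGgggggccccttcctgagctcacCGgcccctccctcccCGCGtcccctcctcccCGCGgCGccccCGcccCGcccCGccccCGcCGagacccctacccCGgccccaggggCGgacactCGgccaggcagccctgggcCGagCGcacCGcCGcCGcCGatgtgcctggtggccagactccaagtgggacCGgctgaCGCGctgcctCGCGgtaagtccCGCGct
Jarid2, first start: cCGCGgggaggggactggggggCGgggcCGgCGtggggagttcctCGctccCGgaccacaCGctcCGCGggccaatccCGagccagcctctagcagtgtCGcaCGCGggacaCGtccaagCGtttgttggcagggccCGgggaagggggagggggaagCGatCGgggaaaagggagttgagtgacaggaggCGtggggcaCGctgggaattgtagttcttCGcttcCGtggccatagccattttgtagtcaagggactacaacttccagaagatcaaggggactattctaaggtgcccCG
Jarid2, second start: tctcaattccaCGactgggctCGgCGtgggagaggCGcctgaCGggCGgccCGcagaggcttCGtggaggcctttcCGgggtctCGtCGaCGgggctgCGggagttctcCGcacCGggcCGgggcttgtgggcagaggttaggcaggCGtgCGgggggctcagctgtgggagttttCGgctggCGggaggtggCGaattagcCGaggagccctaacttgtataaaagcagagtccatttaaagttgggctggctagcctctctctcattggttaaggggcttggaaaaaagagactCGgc

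The Phf19 window holds 38 CpG dinucleotides, and the Jarid2 windows hold 24 and 23. Start windows were found for 29 of the 33 Polycomb genes, 42 windows in all, with a median of 23 CpG dinucleotides against 7 for the 32851 windows of all genes, and 36 of the 42 held at least 7. The windows of 1 gene can overlap and are not independent. The E2F motif TTTCCCGC, searched on both strands, was present in the windows of Phf19 and Suz12 only among the 42 (4.76%), and in 1.07% of all windows. Phf19 was lower in T136A and Suz12 slightly higher. The E-box CACGTG was in 8 of the 42 windows (19.0%) and in 7.15% of all. The genes with an E-box were Bcorl1, Bmi1, Cbx6, Cbx8, Pcgf2, Phc2, Phc3 and Rbbp4. The composite motif TTGCATCA of ATF4 and CHOP was in 0 of the 42 windows and in 0.895% of all, the CRE motif TGACGTCA in that of Cbx8 (1.79% of all), and the YY1 core ATGGCGGC in that of Ring1 (2.24% of all). All the motifs searched except TTGCATCA contain a CpG, and the 42 windows are richer in CpG than those of all genes. The share over all windows is therefore no matched background for these motifs, and enrichment was not tested. Motifs of different names were not checked for overlap with each other, and a match of letters is not a measured binding site.

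**Figure D2:**
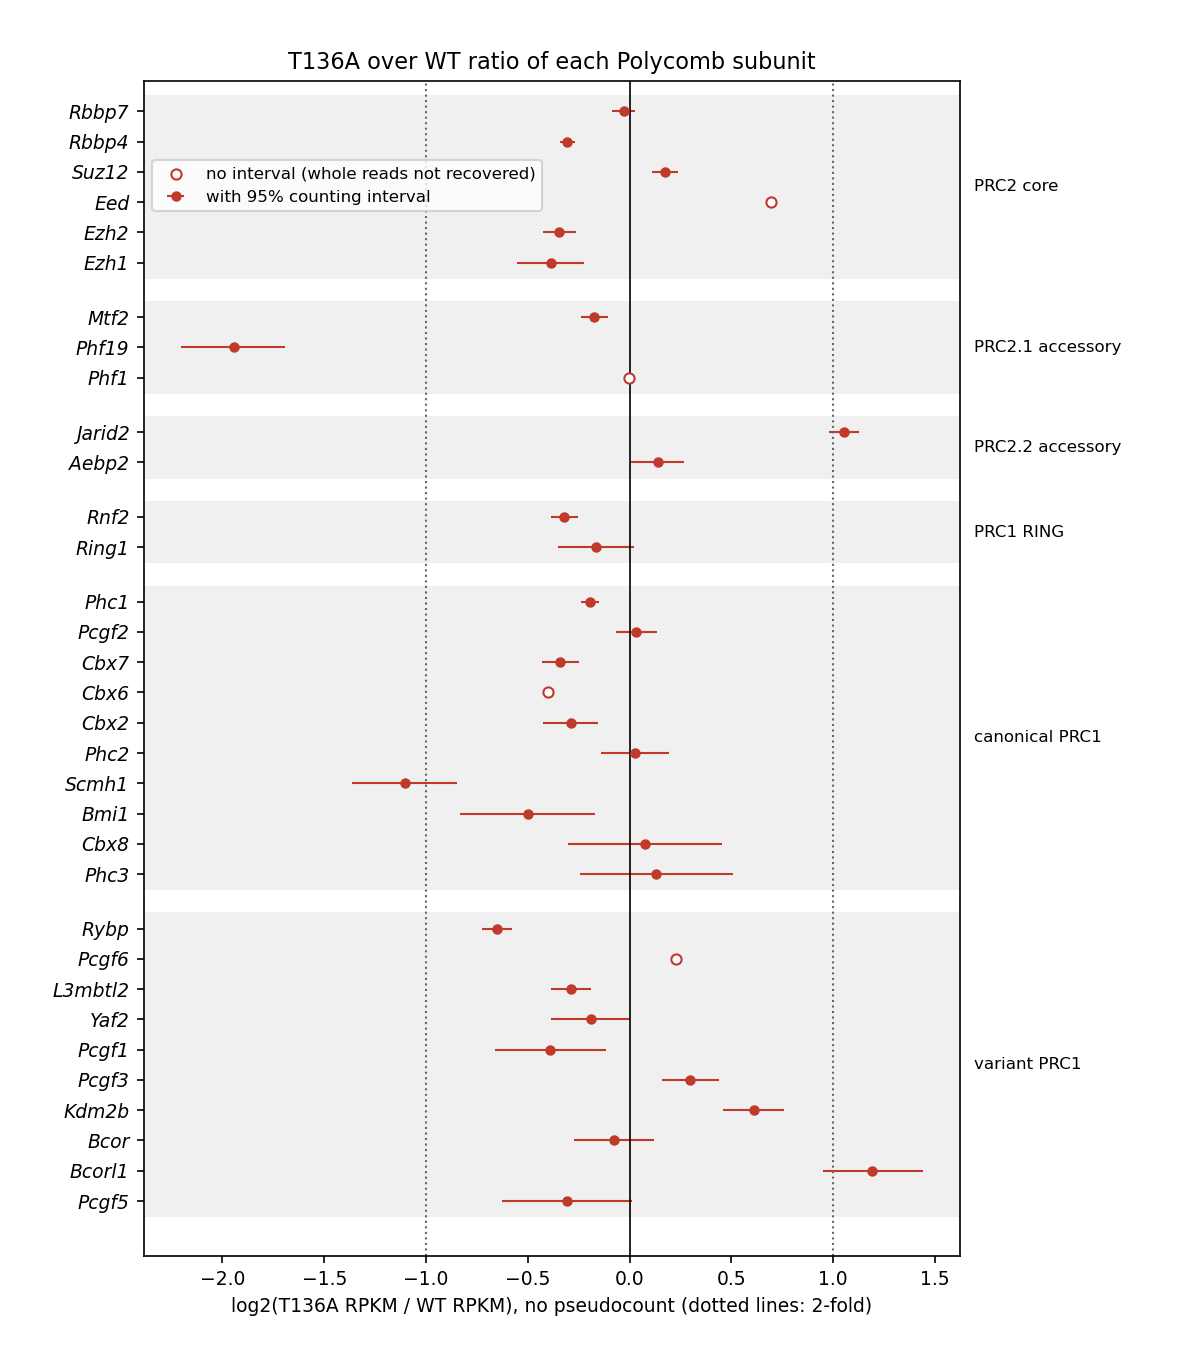
Plain log2 ratio of T136A RPKM over WT RPKM for each Polycomb subunit, with no constant added; bars are 95% counting intervals, open points have none, and dotted lines mark 2-fold. Phf19 lies furthest to the left, Jarid2 and Bcorl1 lie right of the upper line, and many PRC1 genes lie slightly left of 0.

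The catalytic genes of PRC1 were slightly lower in T136A. Rnf2, the main H2A ubiquitin ligase in embryonic stem cells, was at 44.0 RPKM in T136A and 54.9 RPKM in WT, 1.25-fold lower (1.19 to 1.31). Ring1, its relative, was at 7.64 RPKM in T136A and 8.56 RPKM in WT, with an interval of the ratio from 0.784 to 1.02. The share of Rnf2 in their summed level was 85.2% in T136A and 86.5% in WT.

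Of the 9 canonical PRC1 genes at or above 1 RPKM, 6 lay below 0 and 3 just above it. The CBX genes, whose chromodomains read the PRC2 mark, were led by Cbx7, at 15.3 RPKM in T136A and 19.3 RPKM in WT, 1.27-fold lower (1.19 to 1.35). Cbx2, which compacts chromatin, was at 10.8 RPKM in T136A and 13.2 RPKM in WT, 1.22-fold lower (1.11 to 1.34). Cbx6 was at 11.0 RPKM in T136A and 14.5 RPKM in WT, with no interval. Cbx8 was rare, at 1.85 RPKM in T136A and 1.76 RPKM in WT. The levels of the 4 genes summed to 38.9 RPKM in T136A and 48.8 RPKM in WT, while the make-up of that sum differed little. The share of Cbx7 was 39.2% in T136A and 39.5% in WT, that of Cbx6 28.2% in T136A and 29.8% in WT, and that of Cbx2 27.8% in T136A and 27.1% in WT.

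The other canonical genes were Pcgf2, Bmi1, the PHC genes and Scmh1. Pcgf2, the most abundant PCGF transcript of both libraries, was at 26.9 RPKM in T136A and 26.2 RPKM in WT, a ratio of 1.02 (0.956 to 1.10). Bmi1, its relative with known roles in adult stem cells, was at 1.86 RPKM in T136A and 2.63 RPKM in WT, 1.41-fold lower (1.13 to 1.78). Phc1 was at 81.8 RPKM in T136A and 93.6 RPKM in WT, 1.14-fold lower (1.11 to 1.18), and left 5.34% of the summed PHC level to Phc2 in T136A and 4.61% in WT. The PHC group thus rested on 1 gene in both libraries. Phc2 was at 4.63 RPKM in T136A and 4.54 RPKM in WT, and Phc3 at 0.404 RPKM in T136A and 0.369 RPKM in WT. Scmh1, a substoichiometric partner with a SAM domain, showed the largest difference of the canonical group. It had 1.32 RPKM from 188 reads in T136A and 2.84 RPKM from 384 reads in WT, a plain ratio of 0.466 (0.389 to 0.556), while 1 RPKM added brought its log2 ratio to -0.72.

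Variant PRC1 genes were spread widest within PRC1, from -0.63 to 0.79 on the log2 scale, with 4 of 9 above 0, 5 below and a median of -0.06. Rybp (ENSMUSG00000072872, chromosome 6), which occupies the place on RING proteins that CBX proteins take in canonical PRC1, was at 27.8 RPKM in T136A and 43.6 RPKM in WT, 1.57-fold lower (1.49 to 1.65). Yaf2, its relative, was at 12.1 RPKM in T136A and 13.8 RPKM in WT, with an interval of the ratio from 0.765 to 1.00. The share of Rybp in their sum was 69.6% in T136A and 75.9% in WT, and the sum was 39.9 RPKM in T136A and 57.4 RPKM in WT.

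The genes of PRC1.1, the variant complex that KDM2B tethers to unmethylated CpG islands, lay on both sides of 0. Kdm2b was at 4.69 RPKM in T136A and 3.07 RPKM in WT, a ratio of 1.53 (1.37 to 1.69). Exons of Kdm2b overlap those of Rnf34 on the opposite strand, which was at 17.9 RPKM in T136A and 26.5 RPKM in WT, so that its value is uncertain too. Pcgf1, the PCGF protein of this complex, was at 6.69 RPKM in T136A and 8.76 RPKM in WT, 1.31-fold lower (1.08 to 1.58). Bcorl1 (ENSMUSG00000036959, chromosome X), a corepressor that binds PCGF1, was at 3.01 RPKM from 471 reads in T136A and 1.31 RPKM from 196 reads in WT, a ratio of 2.29 (1.93 to 2.72). Bcor, which fills the same place, was at 2.67 RPKM in T136A and 2.82 RPKM in WT, a ratio of 0.947 (0.826 to 1.09). Bcorl1 therefore made up 52.9% of the summed level of both corepressors in T136A and 31.8% in WT.

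Among the remaining variant genes, Pcgf6, the PCGF protein of the germline-repressing complex PRC1.6, was at 25.4 RPKM in T136A and 21.6 RPKM in WT, 1.17-fold higher with no interval. L3mbtl2, its MBT-domain partner, was at 14.9 RPKM in T136A and 18.1 RPKM in WT, 1.22-fold lower (1.14 to 1.31). Pcgf3 was at 5.34 RPKM in T136A and 4.34 RPKM in WT, a ratio of 1.23 (1.12 to 1.36). Pcgf5, its close relative, was at 0.659 RPKM in T136A and 0.814 RPKM in WT, with an interval of the ratio from 0.648 to 1.01. Over the 6 PCGF genes, which define the kinds of PRC1, the summed level was 66.8 RPKM in T136A and 64.4 RPKM in WT. Pcgf2 and Pcgf6 led in both libraries, with shares of 40.2% and 38.0% in T136A and of 40.7% and 33.6% in WT.

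**Figure D3:**
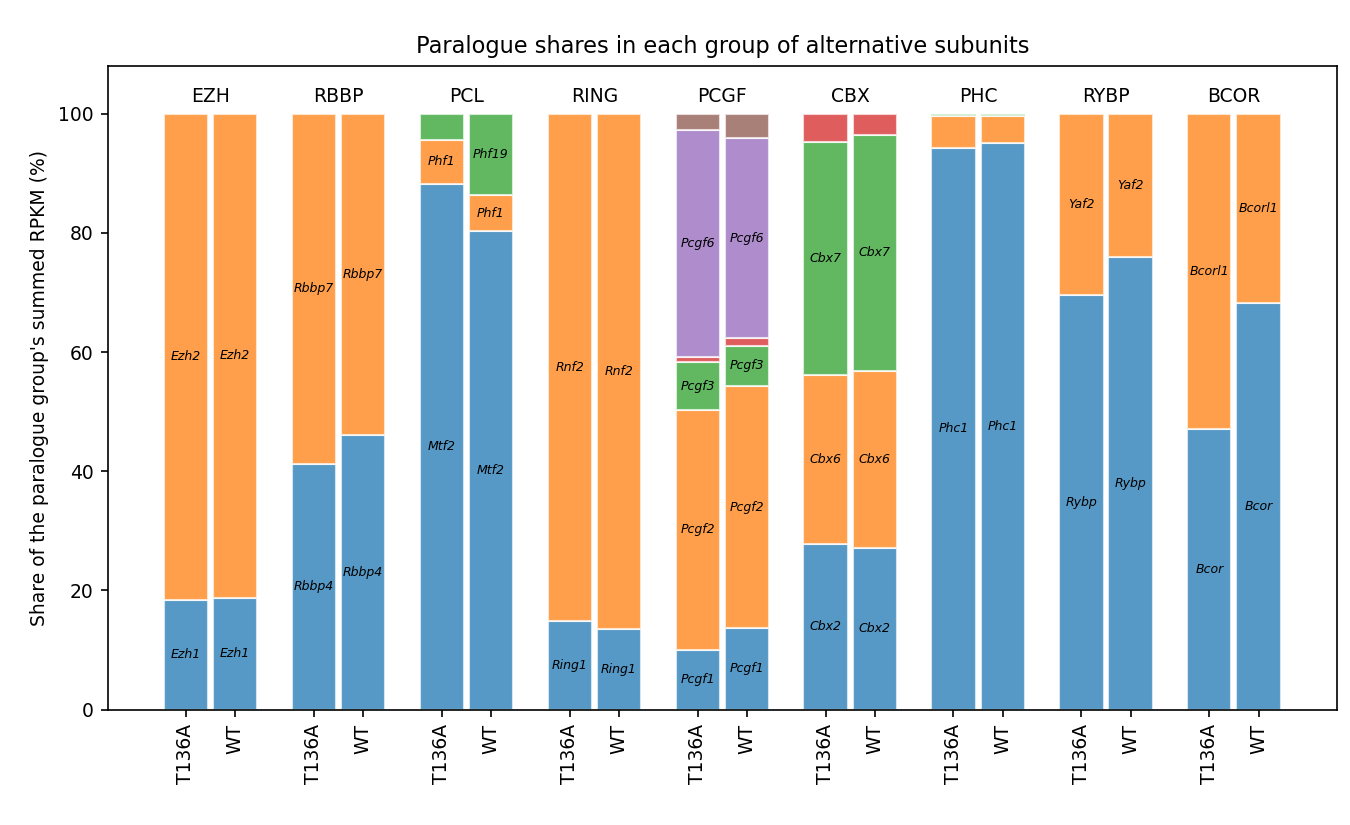
Share of each paralogue in the summed RPKM of its group of alternative subunits, in percent, with the T136A library left of the WT library in each of 9 groups; segments that are too thin carry no name. The segment of Phf19 is thinner in T136A (4.41%) than in WT (13.7%), that of Bcorl1 is thicker in T136A (52.9%) than in WT (31.8%), and the CBX, EZH, RING and PHC groups look nearly alike in both.

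Partners outside the 33 were also uneven. This list and the lists of related genes below were written with earlier results of these data known. The shares over all genes are therefore no independent background for them. Of 24 further Polycomb partner genes, 21 reached 1 RPKM, with 2 past 2-fold higher, where 3.13% of all genes were, and 0 past 2-fold lower, where 3.10% were, and the median was 0.03. Besides Epop, Scml2, an SCM-domain protein on chromosome X that binds PRC1, was at 5.53 RPKM in T136A and 0.799 RPKM in WT, a ratio of 6.92 (5.51 to 8.79), and reached 1 RPKM through T136A alone. Skp1a, a subunit of PRC1.1 shared with ubiquitin ligases, was at 268 RPKM in T136A and 140 RPKM in WT, a ratio of 1.92 (1.85 to 1.98). E2f6, the DNA-binding partner of Pcgf6 and L3mbtl2 in PRC1.6, named after its values were seen, was at 5.79 RPKM in T136A and 10.5 RPKM in WT, 1.81-fold lower.

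Of 13 genes that remove Polycomb marks or assist their removal, 12 reached 1 RPKM and 0 were at least 2-fold apart, beside 6.23% of all genes, with a median of 0.06. Bap1, the H2A deubiquitinase that opposes PRC1, was at 37.8 RPKM in T136A and 20.4 RPKM in WT, and it lies on chromosome 14, whose genes were higher as a whole. Kdm6a, a demethylase of the PRC2 mark, was at 3.97 RPKM in T136A and 7.42 RPKM in WT, and Mbd6, a partner of the deubiquitinase, at 6.91 RPKM in T136A and 12.2 RPKM in WT.

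Developmental regulators of the kind that Polycomb complexes hold silent were mostly at low levels in both libraries. Of 50 such genes found, 8 reached 1 RPKM, 4 of them through T136A alone, with 2 past 2-fold higher in T136A, against 3.13% of all genes, and 0 past 2-fold lower, against 3.10%. These 2 were the cell cycle inhibitor genes Cdkn2a, at 22.6 RPKM in T136A and 3.41 RPKM in WT, and Cdkn2b, at 2.18 RPKM in T136A and 0.410 RPKM in WT. Both lie on chromosome 4, and whether they differ independently of each other was not tested. Cdkn2b was among the 4 that reached 1 RPKM through T136A alone, so it could be called in that direction only. The list includes the 6 markers of differentiated germ layer cells, whose summed level was 4.96 RPKM in T136A and 2.52 RPKM in WT, and their part in its values was not tested. Of the 36 that stayed under 1 RPKM and were above 0 in at least 1 library, 28 were higher in T136A and 8 lower, while 52.3% of the 10436 genes of that kind were higher in T136A, and many of the 36 rest on a few reads. Among 21 germline genes, of the kind that PRC1.6 represses in embryonic stem cells, 19 reached 1 RPKM, 4 were at least 2-fold higher and 2 at least 2-fold lower, beside 3.13% and 3.10% of all genes. The higher ones were Dazl, at 33.3 RPKM in T136A and 1.24 RPKM in WT, Stra8, at 20.1 RPKM in T136A and 3.96 RPKM in WT, Sohlh2 and Slc25a31. The lower ones were Dmrtb1, at 2.58 RPKM in T136A and 13.5 RPKM in WT, and Sycp3. The median of the germline list was 0.11, with genes on both sides of 0. The developmental and germline lists were written with earlier results of these data known. Their counts beside the shares of all genes are therefore no evidence of enrichment, which was not tested.

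**Figure D4:**
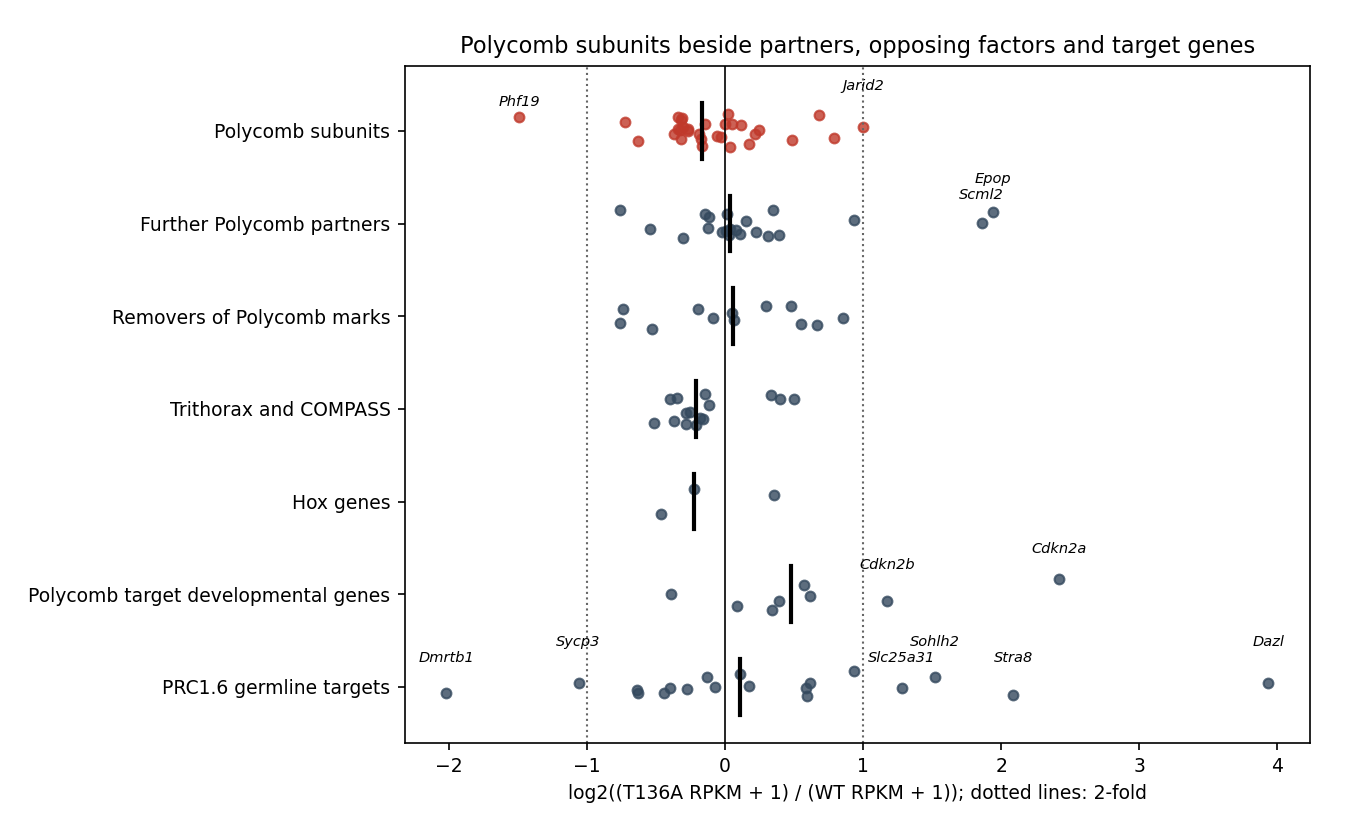
Log2 ratio, T136A over WT with 1 RPKM added to each, for Polycomb subunits (red) and for 6 lists of related genes (dark), showing genes that reached 1 RPKM in at least 1 library; black bars are medians, dotted lines mark 2-fold, and height within a row has no meaning. The subunits cluster around a median of -0.17, while Epop, Scml2, Cdkn2a and Dazl stand far to the right.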

How the data were processed

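Messenger RNA was measured in 1 T136A and 1 WT library. Per the labels' protocols, Trizol RNA was made into libraries with an Illumina TruSeq kit. The authors deposited 1 value per Ensembl gene and library, read here as RPKM: the value times union exon length (GENCODE M21) was a whole multiple of 1 step, within 0.01 reads, for 89.9% of positive values in T136A and 89.7% in WT. Neither labels nor files name the unit, aligner, counting program, strand rule or treatment of reads that match several places. The submitters' processing notes name CASAVA 1.8 and mm9. GENCODE M21 describes GRCm38, so its lengths come from another build.

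Symbols matched 25696 of 25749 identifiers; of identifiers sharing a symbol, the higher was used. Log2 ratios are of RPKM + 1, T136A over WT, for genes at 1 RPKM or more in at least 1 library. "2-fold" calls use that scale, and printed folds are plain ratios. With 1 library per genotype there was no test. Intervals of 95% are exact conditional binomial (Clopper-Pearson) on recovered reads and cover counting error only; reads carry no molecular identifiers. Genes named outside the 33 were those past 2-fold or the 3 furthest from 0 in each list, with exceptions stated; some single genes are not reported here. The 33 genes and all lists were chosen with earlier results of these data known. The calling rule and interval were tested on simulated data. Python 3.11.15, pandas 2.3.3, numpy 2.4.6, scipy 1.17.1 and matplotlib 3.10.9 were used.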

Additional observations from a re-analysis of the deposited data

How the results depend on the processing

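No paired analysis was possible because each genotype had 1 library, and for the same reason no replicate could be left out. Each of the 33 genes was recomputed with 0.1 or 5 RPKM added and under 3 scalings, and 31 kept the sign of the log2 ratio in all 5. The exceptions were Rbbp7 and Phf1, both close to 0. With 0.1 RPKM added, 2 members were at least 2-fold higher (Jarid2 and Bcorl1) and 2 lower (Phf19 and Scmh1), against 723 and 727 of all genes; with 5 RPKM added, 0 members were lower, Phf19 had a log2 ratio of -0.80, and 101 and 114 of all genes were higher and lower. Scaling by the median ratio and quantile normalization each put 1 member, Jarid2, past 2-fold higher. The PRC2.2 median was 0.45 with 5 RPKM added. With a minimum of 5 RPKM the median was -0.83 for PRC2.1 accessory genes, -0.22 for variant PRC1, -0.14 for removers of the marks and 1.01 for developmental targets. At that minimum 209 of all genes were higher, and these lists hold fewer genes. The PRC2.1 value then rests on Mtf2 and Phf19, with Phf19 passing through WT alone. The value for developmental targets rests on Cdkn2a, at 2.42 and passing through T136A alone, and Tbx3, at -0.39. Without a minimum the developmental targets had a median of 0.055, beside 0.48 at 1 RPKM. Shares of summed reads, which favour longer transcripts, were 80.0% and 79.5% for Ezh2 in T136A and WT, 32.1% and 28.1% for Rbbp7, 88.0% and 89.1% for Rnf2, 91.6% and 92.8% for Phc1, and 85.3% and 88.9% for Rybp. Counting Epop with PRC2.1, added after the data were seen, gave ratios of 0.149 in T136A and 0.194 in WT. The other 190 values of subcomplexes, lists, shares and counts stayed within their limits (1.5 times for counts, counting error otherwise), among them those without chromosome 14. Depth limits Phc3, Cbx8, Bmi1 and Pcgf5 most, each with under 200 reads per library.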

Other observations

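Genes that oppose Polycomb repression by methylating lysine 4 of histone H3, with their trithorax partners, lay mostly below 0. Of 15 genes at or above 1 RPKM, 12 had a negative log2 ratio, where 52.6% of all genes did, and the median was -0.21. On the scale of log2(RPKM + 1), 0 differed by 2-fold or more, where 6.23% of all genes did. Ash2l, a core subunit of these methyltransferases, was at 31.2 RPKM in T136A and 45.0 RPKM in WT. Setd1b, one of the enzymes, was at 1.07 RPKM in T136A and 0.459 RPKM in WT, a plain ratio of 2.33 (1.83 to 2.98). Setd1b reached 1 RPKM through T136A alone. Kmt2c, at 0.782 RPKM in T136A and 1.07 RPKM in WT, reached it through WT alone, so it could count only among the 12 below 0. Kansl1 was at 14.2 RPKM in T136A and 19.1 RPKM in WT.

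Hox genes, the classical Polycomb targets, were nearly silent in both libraries. Of 32 found, 3 reached 1 RPKM, among them Hoxb9, at 2.15 RPKM in T136A and 3.35 RPKM in WT, and Hoxc13, at 2.14 RPKM in T136A and 1.46 RPKM in WT. The 32 genes summed to 9.54 RPKM in T136A and 8.27 RPKM in WT. Of the 25 under 1 RPKM that were above 0 in at least 1 library, 18 were higher in T136A and 7 lower, where 52.3% of all 10436 genes of that kind were higher, and many of the 25 rest on a few reads.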
